A study of Mus musculus with 12 samples.

Results

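This account covers 10 genes of heat shock proteins and chaperones (Hspa1a, Hspa1b, Hspa8, Hsph1, Dnajb1, Hsp90aa1, Hsp90ab1, Hspb1, Hspd1 and Hspe1), chosen by their symbols. All 10 were found among the 17734 genes of the deposited expression table, and all 10 passed the filter on low values that left 15315 genes for testing. The table holds RNA-seq values of the colorectum of 12 male C57BL/6 mice of 8 to 10 weeks, 3 in each of 4 groups. Normal mice (numbered 1, 3 and 4) drank water. Colitis mice (numbered 1, 2 and 4) drank 2.5% dextran sulfate sodium (DSS), which injures the colon epithelium, for 7 days. Normal mice receiving BBR (numbered 1, 3 and 4) and colitis mice receiving BBR (numbered 2, 3 and 4) were also given berberine, a plant alkaloid, by gavage at 100 mg/kg, for 6 days by the labels and 7 days by the methods of the study. No group carried a transgene or a deletion. The study asked what BBR does in the colitis tissue and in normal tissue.

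Heat shock proteins bind unfolded or partly folded proteins and keep them from clumping, refold them or pass them on for degradation. In the cytosol, J-domain proteins bring clients to Hsp70, nucleotide exchange factors release them, and Hsp90 with its co-chaperones takes over clients such as kinases and steroid receptors. Part of these genes are made all the time, and part are switched on within minutes of heat, oxidants or tissue handling by heat shock factor 1, which binds repeats of the unit GAA in their promoters. In the gut they are expressed in epithelium, in immune cells and in the muscle wall, where small heat shock proteins are abundant.

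The 4 mice numbered 4, 1 in each group, stood apart from the other 8. Their column totals were 482194 to 504337, against 696286 to 765876 in the others, and the low values of genes with 1 transcript fell on the steps of whole reads for another effective transcript length. By these steps the libraries held about 14200000 to 15700000 reads in the 8 mice numbered 1 to 3 and 16300000 to 19800000 in the 4 others. Hspb1 and Hspa1a in colitis mouse 1, the values of the 10 genes that rest on the fewest reads, were each worth about 72 reads, so that counting error was small for all 120 values. Levels are in FPKM, a unit per transcript length and per sequenced fragment, and differences are on the scale of log2(FPKM + 0.1). Differences are given over all 12 mice unless the 8 mice numbered 1 to 3 are named. Colon epithelium markers were present in every mouse (summed level of 12 genes 13253 to 22820 FPKM), while 10 squamous markers summed to at most 9.53 FPKM and 7 skeletal muscle markers to at most 22.5 FPKM.

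Hspa8, the constitutive cytosolic Hsp70, was the most abundant of the 10 genes in every group, and its range overlapped that of no other member. Its mean level was 1226 ± 392 FPKM (SD, n = 3) in normal mice, 2480 ± 1664 in normal mice receiving BBR, 883 ± 255 in colitis mice and 1112 ± 126 in colitis mice receiving BBR. Hsp90ab1, the constitutive cytosolic Hsp90, came second in all 4 groups, with means of 211 to 463 FPKM, and did not overlap the third gene except in normal mice receiving BBR. Hsp90aa1, Hspe1, Hspb1 and Hspd1 had means between 41.8 and 235 FPKM, and those next to each other in the order overlapped in each group. From the third gene of the order on, only Dnajb1 stood clear of the gene below it, Hsph1 in normal mice and Hspa1b in colitis mice. Hsph1 was lowest in the other 3 groups (12.5 ± 4.0 FPKM in normal mice), while in colitis mice Hspa1a was lowest at 3.85 ± 2.46 FPKM.

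**Figure D1:**
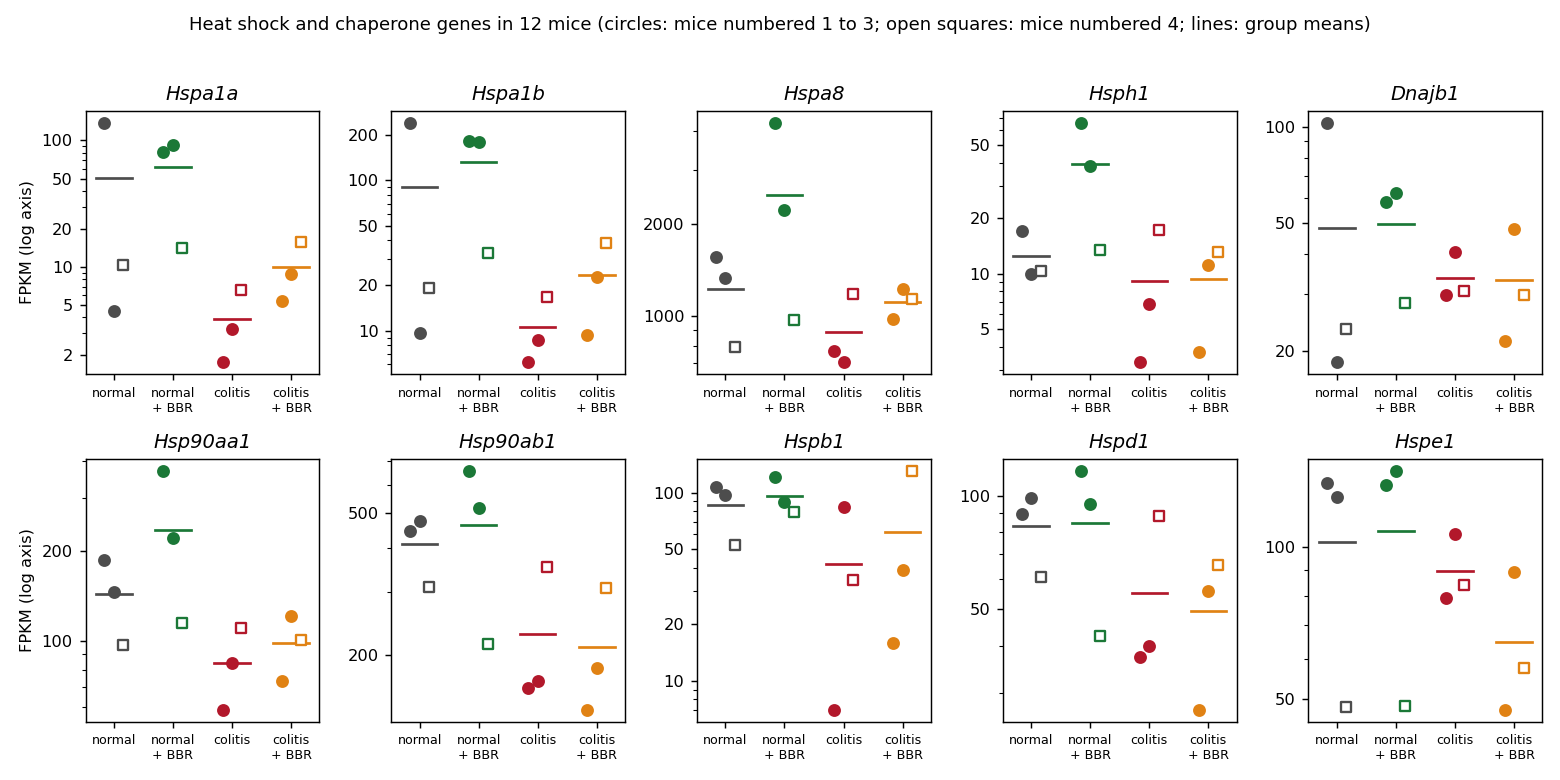
Expression of the 10 heat shock and chaperone genes, in FPKM on a log axis, in each of the 12 mice, by group. Circles are mice numbered 1 to 3, open squares mice numbered 4, and lines the group means. Hspa1a and Hspa1b were low in all 6 colitis mice with or without BBR, and also in normal mice 3 and 4 and normal mouse 4 receiving BBR. They were far higher in normal mouse 1 and in normal mice 1 and 3 receiving BBR. Hspa8, Hsph1 and Hsp90aa1 were highest in the normal mice 1 and 3 receiving BBR.

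Hspa1a and Hspa1b encode the inducible Hsp70, the textbook readout of a heat shock response. Hspa1a was at 138, 4.48 and 10.4 FPKM in normal mice 1, 3 and 4, and at 81.2, 91.3 and 14.2 FPKM in normal mice 1, 3 and 4 receiving BBR. It was at 1.77, 3.21 and 6.56 FPKM in colitis mice 1, 2 and 4, and at 5.34, 8.84 and 15.7 FPKM in colitis mice 2, 3 and 4 receiving BBR. A set of 3 normal mice, 1 untreated and 2 receiving BBR, was thus far above the other 9 mice, and the highest value was 77.8 times the lowest. Hspa1b had the same 3 mice on top and ranged from 6.20 FPKM in colitis mouse 1 to 240 FPKM in normal mouse 1, and was above Hspa1a in each of the 12 mice.

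The pair lies side by side on chromosome 17, and its transcripts are near copies. Of the 50-base words of the Hspa1a transcript, 50 bases being the read length, 66.3% also occur in another gene and 58.8% in Hspa1b, so the split of reads between them is uncertain. Their summed level gave differences like those of each gene, with -2.04 ± 1.06 (SE) for colitis against normal and 1.47 ± 1.06 for normal with BBR against normal. The 250 bases before the starts of both genes are shown because they differ at only 3 positions and hold the same heat shock element, the 2 facing units GAANNTTC, in capitals. They come from RefSeq (build GRCm38.p6, minus strand) and are written 5′ to 3′ for Hspa1a (chr17:34972157-34972406) and Hspa1b (chr17:34959239-34959488).
Hspa1a: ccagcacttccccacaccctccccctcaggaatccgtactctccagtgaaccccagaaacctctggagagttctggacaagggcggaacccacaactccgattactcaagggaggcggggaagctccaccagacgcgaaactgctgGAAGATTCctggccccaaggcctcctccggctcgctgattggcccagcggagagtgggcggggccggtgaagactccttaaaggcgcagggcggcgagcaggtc
Hspa1b: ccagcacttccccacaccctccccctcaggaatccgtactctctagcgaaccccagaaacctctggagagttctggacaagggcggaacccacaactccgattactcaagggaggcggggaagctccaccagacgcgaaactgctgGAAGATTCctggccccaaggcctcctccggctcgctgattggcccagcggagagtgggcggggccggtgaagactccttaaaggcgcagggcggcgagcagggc
The 3 differences are C-207T, T-204C and T-2G, with the base of Hspa1a first and positions counted back from -1 at the base before the start. None falls in the element, which begins at -104 in both. The windows are 98.8% identical.

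Promoter windows of 250 bases were on hand for 7 of the 10 genes, not for Hspa8, Hsp90aa1 and Hsp90ab1. Of these 7 genes, 6 held GAANNTTC or TTCNNGAA, searched on the strand of the gene (each reads the same on both strands). Counted in the same way, 14.5% of 27025 genes had a window with one of these motifs (12.8% of 32851 windows), and 0.514% of genes had one with 3 alternating units (GAANNTTCNNGAA or TTCNNGAANNTTC, which overlap the shorter motifs). The window between Hspd1 and Hspe1, which are transcribed away from each other, held the longer motif, so that both genes were counted for the same site. Hspa1a and Hspa1b were counted for near-identical windows, so the 6 genes do not stand for 6 separate sites. Stretches of 60 bases from 3 promoters are shown with the motifs in capitals, 5′ to 3′ on the strand of the gene named (RefSeq, GRCm38.p6): Hspb1 on the plus strand at chr5:135887789-135887848, Hspd1 on the minus strand at chr1:55088033-55088092 and Hsph1 on the minus strand at chr5:149636337-149636396.
Hspb1: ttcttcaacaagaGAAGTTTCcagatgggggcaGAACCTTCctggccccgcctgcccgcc
Hspd1: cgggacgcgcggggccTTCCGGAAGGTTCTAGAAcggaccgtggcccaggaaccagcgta
Hsph1: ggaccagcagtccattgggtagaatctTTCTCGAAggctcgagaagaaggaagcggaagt
Neither window of Dnajb1 held these letters, nor did another window of Hspd1. A match is a description of the sequence and was not tied to the levels.

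Dnajb1, the J-domain partner that starts the Hsp70 cycle on stress, was at 103, 18.4 and 23.4 FPKM in normal mice 1, 3 and 4, and at 58.3, 62.3 and 28.3 FPKM in normal mice 1, 3 and 4 receiving BBR. It was at 29.9, 40.6 and 30.6 FPKM in colitis mice 1, 2 and 4, and at 21.4, 48.0 and 29.9 FPKM in colitis mice 2, 3 and 4 receiving BBR. The groups overlapped, and the same normal mouse 1 was highest. In that mouse part of the immediate early genes, which respond within minutes to many stimuli, were also high. Fos, Junb, Egr1, Egr2, Egr3 and Ier2 were higher there than in any other mouse, and the other genes of the list were not. The summed level of all 14 genes of the list was 1307 FPKM, against 308 to 618 in the other 11 mice, and Egr1 was at 261 FPKM against 2.03 and 11.6 in normal mice 3 and 4. The part of this in the Hspa1a, Hspa1b and Dnajb1 values was not tested.

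Hspa8 and Hsph1 were highest in another pair of mice. Hspa8 was at 1553, 1334 and 791 FPKM in normal mice 1, 3 and 4, and at 4263, 2211 and 968 FPKM in normal mice 1, 3 and 4 receiving BBR. It was at 766, 707 and 1176 FPKM in colitis mice 1, 2 and 4, and at 974, 1224 and 1137 FPKM in colitis mice 2, 3 and 4 receiving BBR. Normal mice 1 and 3 receiving BBR were above all other mice, and mouse 4 of that group was not. Of the 50-base words of Hspa8, 68.8% occur in other annotated genes, 64.4% in the gene model Gm15459, which is not in the deposited table.

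Hsph1, the Hsp110 that acts as a nucleotide exchange factor of Hsp70, was at 17.1, 9.95 and 10.4 FPKM in normal mice 1, 3 and 4, and at 65.7, 38.4 and 13.4 FPKM in normal mice 1, 3 and 4 receiving BBR. It was at 3.31, 6.83 and 17.2 FPKM in colitis mice 1, 2 and 4, and at 3.76, 11.2 and 13.1 FPKM in colitis mice 2, 3 and 4 receiving BBR. All 3 normal mice receiving BBR were above all 3 colitis mice receiving BBR, by a small margin for mouse 4 of each. Hsph1 shares no 50-base word with another gene. Of the genes described next, Hsp90aa1 shares 50.1% of its words, Hspb1 50.1%, Hspe1 44.8% and Hspd1 42.1%, each mostly with a gene model that is not in the deposited table, so their levels carry the same uncertainty as that of Hspa8. For Hsp90ab1 the share was 4.13% and for Dnajb1 0.412%.

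Hsp90aa1, the inducible cytosolic Hsp90, was at 186, 146 and 96.6 FPKM in normal mice 1, 3 and 4, and at 370, 221 and 114 FPKM in normal mice 1, 3 and 4 receiving BBR. It was at 58.8, 84.4 and 110 FPKM in colitis mice 1, 2 and 4, and at 73.4, 121 and 100.3 FPKM in colitis mice 2, 3 and 4 receiving BBR. As for Hspa8, normal mice 1 and 3 receiving BBR were highest. Hsp90ab1 was at 445, 474 and 311 FPKM in normal mice 1, 3 and 4, and at 658, 517 and 213 FPKM in normal mice 1, 3 and 4 receiving BBR. It was at 161, 169 and 354 FPKM in colitis mice 1, 2 and 4, and at 140, 183 and 309 FPKM in colitis mice 2, 3 and 4 receiving BBR. Among mice numbered 1 to 3 the 4 colitis mice with or without BBR were all below the 4 normal mice, while among mice numbered 4 the colitis mouse was highest and the normal mouse receiving BBR lowest.

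**Figure D2:**
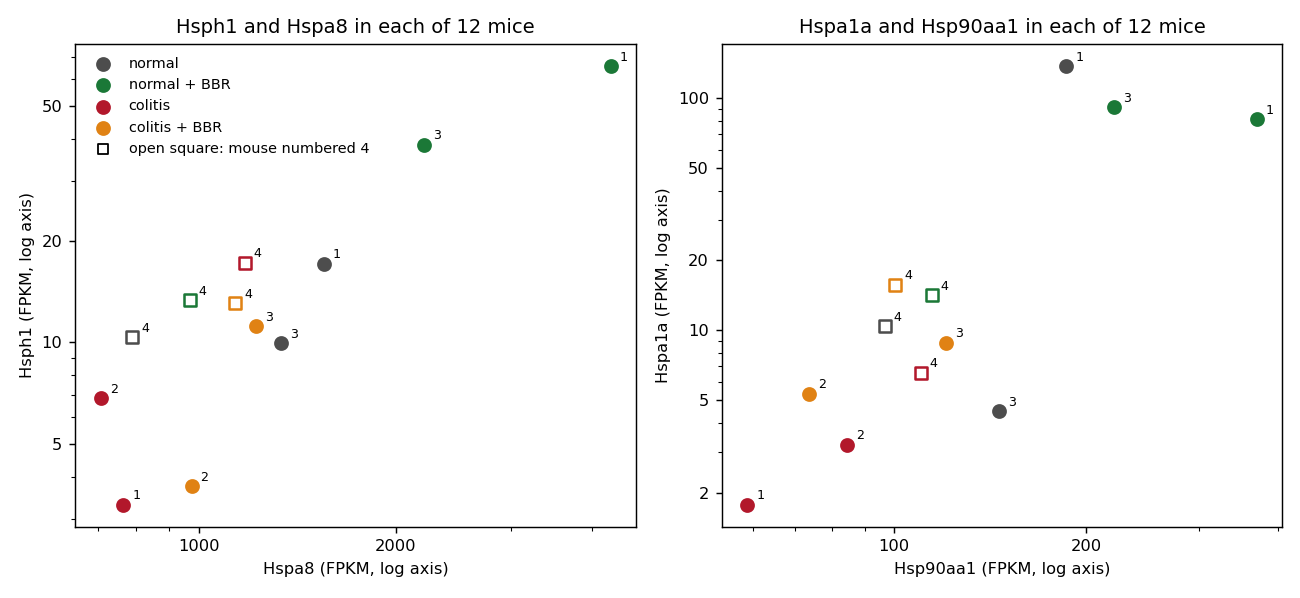
Level of Hsph1 against Hspa8 (left) and of Hspa1a against Hsp90aa1 (right) in each of the 12 mice, in FPKM on log axes, with the mouse number beside each point. Normal mice 1 and 3 receiving BBR stood apart in both panels, and normal mouse 1 stood with them only in the right panel.

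Hspb1, the small heat shock protein Hsp27 that binds unfolded clients without ATP and stabilises actin filaments, was at 107, 97.5 and 52.8 FPKM in normal mice 1, 3 and 4, and at 121, 88.7 and 79.3 FPKM in normal mice 1, 3 and 4 receiving BBR. It was at 7.05, 83.8 and 34.4 FPKM in colitis mice 1, 2 and 4, and at 15.9, 38.9 and 131 FPKM in colitis mice 2, 3 and 4 receiving BBR. Both colitis groups spanned a wide range and overlapped the normal groups. Markers of smooth muscle moved with this gene in part. Their summed level over 12 genes was 133 FPKM in colitis mouse 1 and 4384 FPKM in colitis mouse 4 receiving BBR, the mice with the lowest and the highest Hspb1. In both normal groups, however, mouse 4 had the highest muscle sum and the lowest Hspb1, and colitis mice 2 and 4 had like sums of 940 and 926 FPKM with Hspb1 at 83.8 and 34.4 FPKM. It was 2209 to 4101 FPKM in normal mice, 3057 to 6549 in normal mice receiving BBR, 133 to 940 in colitis mice and 650 to 4384 in colitis mice receiving BBR, and none of the 12 markers was at 0 in all mice. In whole tissue fewer muscle cells and less RNA per cell cannot be told apart, and the part of muscle in the Hspb1 values was not tested.

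Hspd1 and Hspe1 encode the mitochondrial chaperonin Hsp60 and its cochaperonin Hsp10, which work as one folding chamber. Hspd1 was at 89.3, 98.6 and 61.0 FPKM in normal mice 1, 3 and 4, and at 117, 95.2 and 42.5 FPKM in normal mice 1, 3 and 4 receiving BBR. It was at 37.2, 39.9 and 88.7 FPKM in colitis mice 1, 2 and 4, and at 27.0, 55.8 and 65.3 FPKM in colitis mice 2, 3 and 4 receiving BBR. Hspe1 had the smallest ratio of highest to lowest value of the 10 genes, 2.97, from 47.7 to 142 FPKM, with group means of 102 ± 47.2, 108 ± 51.4, 89.8 ± 14.4 and 64.9 ± 21.8 FPKM in the order above. In both normal groups Hspe1 was low in mouse 4, at 48.2 and 48.5 FPKM, against 125 to 142 FPKM in mice 1 and 3. Hspe1 has a transcript of 774 bases, and genes of 700 to 1000 bases were lower in mice numbered 4 than in the others, by a median log2 difference of -0.42 over 142 genes. Hspe1 of mouse 4 differed from the others of its group by -1.42 in normal mice and -1.50 in normal mice receiving BBR. In colitis mice the difference was only -0.13, and with BBR -0.18. Hspb1, with 930 bases, was higher in the mice numbered 4 by 0.39 on average, lower in both normal groups and higher in both colitis groups. The part of transcript length in the Hspe1 values was not tested.

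In colitis mice all 10 genes had lower mean log2 levels than in normal mice, but none passed the adjusted limit. The median difference of the 10 genes was -0.73, beside -0.32 over all genes tested, and 8 of the 10 were below that median. Smooth muscle markers were 12 of 12 lower in the same comparison (median -2.76, 11 at the unadjusted limit), granulocyte markers 12 of 12 higher and macrophage and monocyte markers 11 of 12 higher. Immediate early genes were 9 of 14 lower (median -0.47, with 2 lower and 1 higher at the unadjusted limit). The part of all these lists in the differences of the 10 genes was not tested. After quantile normalization or median centring 8 of the 10 remained negative, and Dnajb1 and Hspe1 turned positive. The limma fit gave Hspa1a the largest difference, -2.44 ± 1.09 (SE; 95% interval -4.83 to -0.06; limma adjusted p = 0.223; exact permutation p = 0.2). Hspa1b followed with -1.86 ± 1.05, Hspb1 with -1.58 ± 0.84 and Hsp90ab1 with -0.92 ± 0.46 (limma adjusted p = 0.305, 0.282 and 0.261). Dnajb1 and Hspe1 were nearest to 0, with -0.09 ± 0.56 and -0.07 ± 0.46.

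By the adjusted limit 0 of the 10 genes and 1.08% of all genes were called. By the limit of the study, an unadjusted P of at most 0.05, 1 of the 10 (Hspa1a) was lower, beside 15.9% of all genes, a share that does not set the members apart. No member separated the 3 colitis mice from the 3 normal mice, beside 22.2% of all genes that were lower without overlap. The exact two-sided permutation p over 3 against 3 mice was 0.2 or more for each of them, where the smallest possible value is 0.1. Hspa1a missed the unadjusted limit without normal mouse 1, where its difference was -1.01, and without colitis mouse 1 or 2, where it was -2.0 or -2.41. It also missed it with a pseudocount of 1, no filter, quantile normalization, median centring, the compared groups alone, no trend and either block. The sum of Hspa1a and Hspa1b missed it as well (limma unadjusted p = 0.0788). The count of 1 became 2 without normal mouse 3, without normal mouse 4 or in the compared groups alone and 3 without colitis mouse 4, and without colitis mouse 2 it was 1 through Hspb1.

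With the 8 mice numbered 1 to 3 alone, the median of the 10 genes was -1.36, beside -0.42 over all genes. Between mouse 4 of each group it was 0.29, beside -0.10 over all genes, with 7 of 10 genes higher in colitis mouse 4. In the mice numbered 1 to 3 alone Hsp90ab1 passed the adjusted limit, falling by 1.48 on the log2 scale (SE 0.21, limma adjusted p = 0.0292), beside 3.69% of all genes called lower. At the unadjusted limit 6 of the 10 genes were lower in these mice, beside 27.4% of all genes. Of the 10 genes 9, Dnajb1 being the other, were lower in both colitis mice 1 and 2 than in both normal mice 1 and 3, but so were 52.3% of all genes.

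In normal mice receiving BBR 9 of the 10 genes had higher mean log2 levels than in normal mice, and none passed the adjusted limit. The differences were 1.53 ± 1.05 (SE) for Hspa1b, 1.41 ± 0.68 for Hsph1, 1.33 ± 1.09 for Hspa1a, 0.83 ± 0.51 for Hspa8 and 0.61 ± 0.41 for Hsp90aa1. Hspb1, Hspe1, Hsp90ab1 and Hspd1 lay between -0.06 and 0.21. The median of the 10 genes was 0.51, beside -0.02 over all genes. Smooth muscle markers were 12 of 12 higher (median 0.56) and immediate early genes 10 of 14 lower (median -0.21), and their part was not tested. The limma fit called 0 of the 10 genes and 0 of 15315 genes (0% of all) at the adjusted limit, and 208 genes at an unadjusted P of at most 0.05, which became 392 with the replicate number as a block.

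None of the 10 genes reached the unadjusted limit, beside 0.516% of all genes that were higher by it. Hsph1 came nearest, with an exact permutation p of 0.2 and a limma adjusted p of 1. This count of 0 became 3 without normal mouse 1 (Hspa1a, Hspa1b and Dnajb1) and 3 without normal mouse 4 receiving BBR (Hspa8, Hsph1 and Hsp90aa1), and 1 (Hsph1) after quantile normalization, after median centring or in the compared groups alone. None was higher without overlap, beside 4.17% of all genes. Hspa8, Hsph1, Hsp90aa1 and Hsp90ab1 were each higher in normal mice 1 and 3 receiving BBR than in all 3 normal mice, and mouse 4 receiving BBR fell within or below the range of the normal mice for each of these genes. Between mice of the same number, Hspa8, Hsph1 and Hsp90aa1 were higher with BBR in all 3 pairs, mouse 4 included. The share of all genes higher in all 3 pairs was not computed, so this does not set these genes apart. With the replicate number as a block none of the 10 genes reached the unadjusted limit.

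Without the mice numbered 4, Hspa8 and Hsph1 reached the unadjusted limit, with differences of 1.09 ± 0.35 and 1.94 ± 0.60 (SE), beside 0.849% of all genes that were higher by it, and their limma adjusted p stayed at 1. These same 4 genes were then higher without overlap, 4 of 10 members beside 18.5% of all genes. Normal mouse 1 weighed most on the inducible pair: without it the differences of Hspa1a and Hspa1b were 2.77 and 2.91, and without normal mouse 3 they were 0.32 and 0.59.

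**Figure D3:**
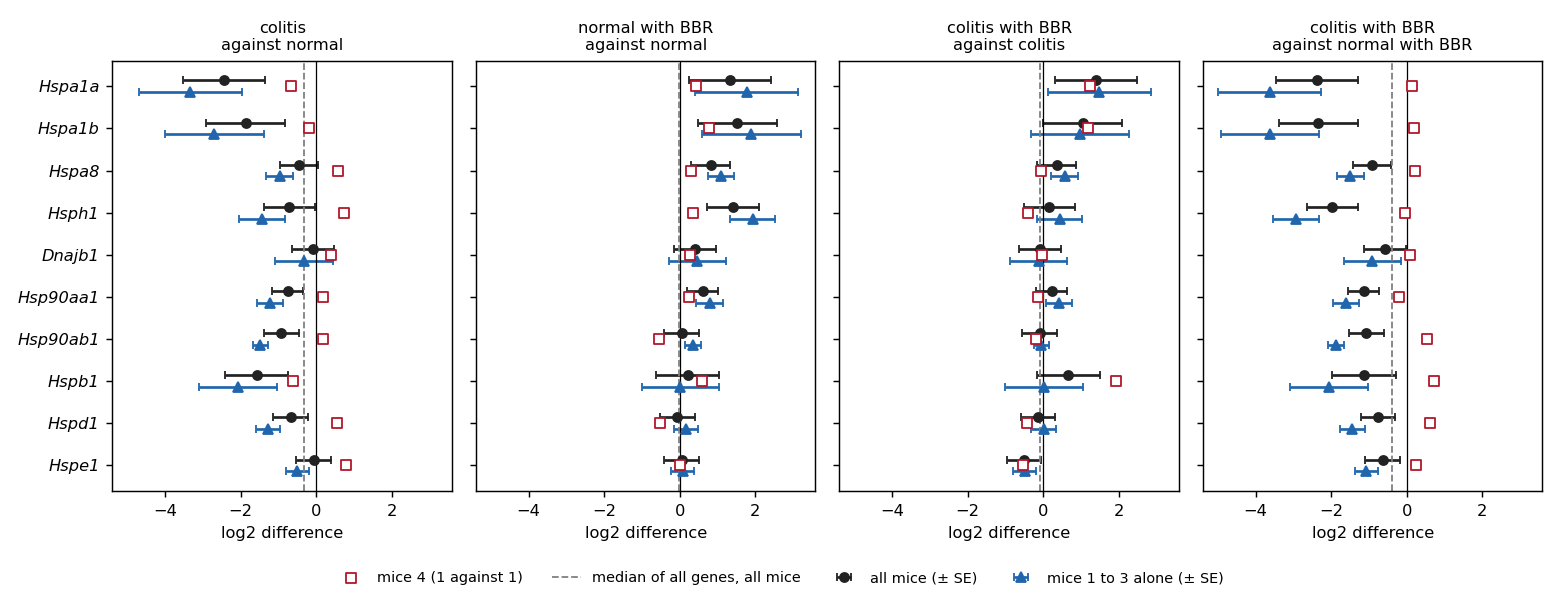
Log2 differences of the 10 genes in 4 comparisons, for all 12 mice (black circles ± SE), for the 8 mice numbered 1 to 3 alone (blue triangles ± SE) and for mouse 4 of one group against mouse 4 of the other (open red squares, no error). The dashed line is the median of all genes tested. In both comparisons of colitis with normal mice the triangles were left of the circles, and most squares lay right of 0.

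In colitis mice receiving BBR 6 of the 10 genes had higher and 4 lower mean log2 levels than in colitis mice, with 9 and 1 after median centring. Hspa1a and Hspa1b had the largest differences, 1.41 ± 1.09 (SE) and 1.05 ± 1.05, from mean levels of 3.85 and 10.5 in colitis mice to 9.97 and 23.5 FPKM with BBR. The other 8 genes lay between -0.51 ± 0.46 for Hspe1 and 0.66 ± 0.84 for Hspb1. The Hspb1 difference came from the mice numbered 4: it was 1.92 between those mice and 0.03 ± 1.03 in the others. Smooth muscle markers were 12 of 12 higher, with a median of 1.16 that was 2.04 between the mice numbered 4 and 0.89 in the others. Macrophage and monocyte markers were 12 of 12 lower (median -1.19, 9 at the unadjusted limit), granulocyte markers 11 of 12 lower (median -1.94) and fibroblast markers 9 of 9 lower (median -0.59), and the part of these cells was not tested. The limma fit called 0 of the 10 genes and 0 of all genes (0%) at the adjusted limit, with 0 of the 10 and 978 of all at an unadjusted P of at most 0.05, where 1 of the 10 (Hspa1a) passed in the compared groups alone.

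No member separated these groups, beside 7.08% of all genes. In the mice numbered 1 to 3 alone Hspa1a, Hspa1b and Hspa8 were higher without overlap, 3 of 10 beside 6.97% of all genes, with differences of 1.49 ± 1.36, 0.98 ± 1.3 and 0.57 ± 0.35 (SE) and limma adjusted p of 0.852, 0.920 and 0.765.

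In colitis mice receiving BBR all 10 genes had lower mean log2 levels than in normal mice receiving BBR, under each scaling tried, and none passed the adjusted limit. The median of the 10 genes was -1.10, beside -0.40 over all genes, and all 10 were below that median. The limma fit gave differences of -2.37 ± 1.09 (SE) for Hspa1a, -2.34 ± 1.05 for Hspa1b, -1.97 ± 0.68 for Hsph1, -1.13 ± 0.41 for Hsp90aa1 and -1.07 ± 0.46 for Hsp90ab1. The limma adjusted p of Hsph1 was 0.215, the smallest of the 10. No member and 0.0392% of all genes were called at the adjusted limit. In the same comparison smooth muscle markers were 12 of 12 lower (median -1.88, 6 at the unadjusted limit), fibroblast markers 9 of 9 lower (median -1.29, 6 at that limit) and granulocyte markers 12 of 12 higher (median 1.46, 4 at that limit). Their part in the differences of the members and of the chaperone lists was not tested.

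Hspa1b, Hsph1, Hsp90aa1 and Hsp90ab1 reached the unadjusted limit, 4 of 10 beside 17.3% of all genes that were lower by it. Hsph1 alone was lower without overlap, beside 18% of all genes. This count of 4 rested on single mice: it was 0 without normal mouse 1 receiving BBR or without colitis mouse 2 receiving BBR, and 8 without normal mouse 4 receiving BBR. It was 2 after quantile normalization, 1 after median centring and 0 with the replicate block.

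In the mice numbered 1 to 3 alone 5 of the 10 genes fell past the adjusted limit, beside 13.5% of all genes. The log2 differences were -2.93 ± 0.60 (SE) for Hsph1, -1.86 ± 0.21 for Hsp90ab1, -1.60 ± 0.35 for Hsp90aa1, -1.49 ± 0.35 for Hspa8 and -1.44 ± 0.32 for Hspd1, with limma adjusted p of 0.0209 to 0.0402. All 10 genes were lower without overlap in these mice, as were 58.8% of all genes. Between mouse 4 of each group the median was 0.22, beside -0.08 over all genes, with 8 of 10 genes higher in colitis mouse 4 receiving BBR. This comparison shares its colitis mice receiving BBR with the one before and its normal mice receiving BBR with the one before that.

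The interaction, which tests whether the BBR difference is another in colitis mice than in normal mice, called none of the 10 genes and 0% of all genes at the adjusted limit (371 genes at an unadjusted P of at most 0.05, none of them a member, though 1 member reached it without normal mouse 1). Hsph1 had the largest value, -1.25 ± 0.96 (SE; 95% interval -3.35 to 0.85). For Hspa1a it was 0.07 ± 1.54, an interval of -3.30 to 3.45 that leaves room for large differences either way. In the mice numbered 1 to 3 alone these values were -1.50 ± 0.85 and -0.29 ± 1.93.

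The other genes of the chaperone network were described in 9 lists. In colitis against normal mice no gene of these lists passed the adjusted limit. Of the 6 other small heat shock proteins tested, all were lower, with a median of -1.64 (-1.85 in the mice numbered 1 to 3 alone), where 11293 of all 15315 genes were lower. Of these 6, Hspb2 and Cryab, which bind unfolded proteins in muscle, reached the unadjusted limit, beside 15.9% of all genes. Cryab had a difference of -1.93 ± 0.54 (SE; limma adjusted p = 0.0968), and was at 28.0, 24.2 and 25.9 FPKM in normal mice against 2.23, 15.4 and 8.74 FPKM in colitis mice, without overlap. Smooth muscle markers moved with this list too, with 12 of 12 lower and 11 at the unadjusted limit, and their part was not tested. Granulocyte markers were 12 of 12 higher (median 2.64) and macrophage and monocyte markers 11 of 12 higher (median 1.02). Of these, S100a8 and Mmp8 rose past the adjusted limit (limma adjusted p = 0.0254 and 0.0375). The 3 normal mice had S100a8 listed at 0, against 336, 290 and 24.9 FPKM in colitis mice 1, 2 and 4, and Mmp8 was at most 0.03 FPKM in normal mice and 0.44 to 3.49 FPKM in colitis mice, so that the pseudocount sets the size of their differences. The part of these cells was not tested either. Of 13 J-domain genes 5 were lower at the unadjusted limit (Dnaja4, Dnajb2, Dnajb4, Dnajb5 and Dnajc7), with -1.57 ± 0.48 (SE) for Dnajb4, and the list median was -0.19. Hspa12a, a distant Hsp70 relative, and Hsf2bp, a binding partner of heat shock factor 2, were higher at that limit, by 1.26 ± 0.37 and 1.37 ± 0.44, beside 5.56% of all genes. Lower at that limit were also 2 of 17 Hsp90 co-chaperones, 2 of 13 mitochondrial chaperones and proteases, 1 of 14 TRiC and prefoldin subunits, 1 of 6 Bag factors, 1 of 8 other Hsp70 and Hsp110 genes and 1 of 6 heat shock factors and regulators. These counts stand beside the same 15.9% of all genes. All 6 Bag nucleotide exchange factors (median -0.44), 16 of 17 Hsp90 co-chaperones (-0.30) and 13 of 14 subunits of TRiC and prefoldin, the folding machines of actin and tubulin (-0.23), were lower too, beside an all-gene median of -0.32. In the mice numbered 1 to 3 alone these 3 medians were -0.67, -0.47 and -0.51. Of the chaperones of the endoplasmic reticulum (ER) 12 of 15 were higher, with a median of 0.16, but this direction came with the mice numbered 4: the median was 0.61 between them and -0.15 in the others. In this list Calr, a calcium-binding lectin chaperone, had 0.48 ± 0.26.

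**Figure D4:**
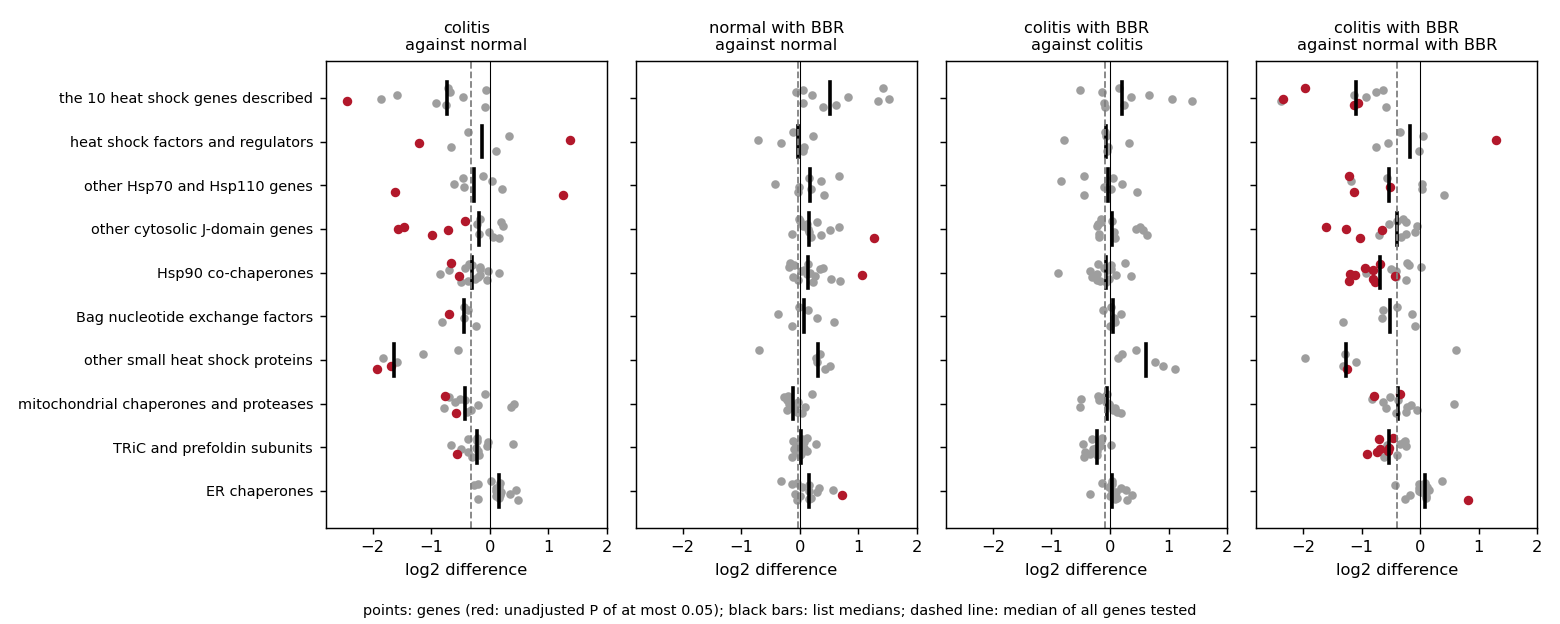
Log2 differences of the 10 genes and of 9 lists of other chaperone genes in 4 comparisons. Points are genes, red at an unadjusted P of at most 0.05, black bars are list medians and the dashed line is the median of all genes tested. Small heat shock proteins lay furthest left in colitis against normal mice, and the ER median lay right of the dashed line in both comparisons of colitis with normal mice, over all 12 mice.

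In normal mice receiving BBR against normal mice, 3 genes of the lists reached the unadjusted limit, all higher, beside 0.516% of all genes. Dnaja1, a J-domain partner of Hsp70, differed by 1.26 ± 0.41 (SE), Chordc1, a partner of Hsp90, by 1.06 ± 0.33, and Dnajb9, a J-domain protein of the ER, by 0.71 ± 0.31, each with a limma adjusted p of 1. Dnaja1 was at 173, 92.9 and 48.3 FPKM in normal mice 1, 3 and 4 receiving BBR and at 57.1, 25.6 and 38.0 FPKM in normal mice, and thus followed Hsph1 and Hspa8. In the lists 11 of 13 J-domain genes (median 0.15) and 12 of 17 Hsp90 co-chaperones (0.13) were higher, and 10 of 13 mitochondrial chaperones and proteases were lower (-0.11).

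In colitis mice receiving BBR against normal mice receiving BBR, 9 of 17 Hsp90 co-chaperones reached the unadjusted limit, all lower, with a list median of -0.68, and so did 7 of 14 TRiC and prefoldin subunits, all lower, with -0.54. These shares stand beside 17.3% of all genes and beside the lower muscle and fibroblast and higher granulocyte markers given above. Cct4, a TRiC subunit, differed by -0.91 ± 0.24 (SE; limma adjusted p = 0.207) and Ahsa2, a relative of the Hsp90 activator Ahsa1, by -1.21 ± 0.35 (limma adjusted p = 0.214). All 13 J-domain genes and all 6 Bag factors were lower, with medians of -0.39 and -0.52, and 9 of 15 ER chaperones were higher, with 0.09. Calr alone of the ER list reached the unadjusted limit, higher by 0.81 ± 0.26 (SE; limma adjusted p = 0.215), beside 2.37% of all genes. Lower at that limit were 4 of 13 J-domain genes, 3 of 8 other Hsp70 and Hsp110 genes, 2 of 13 mitochondrial chaperones and proteases and 1 of 6 other small heat shock proteins. Of these, Hspa4l differed by -1.22 ± 0.38. In the mice numbered 1 to 3 alone the medians were -1.04 for Hsp90 co-chaperones, -0.77 for TRiC and prefoldin, -0.55 for J-domain genes, -0.90 for Bag factors and -0.11 for ER chaperones, so that the last turned sign. Of the heat shock factors and regulators, Hsf2bp was higher at the unadjusted limit, by 1.3 ± 0.44, beside 2.37% of all genes. Hsf1, the main activator of the inducible genes, did not reach it, with -0.76 ± 0.38. In colitis mice with and without BBR no gene of the 9 lists reached the unadjusted limit.

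The genes most like the members over the 12 mice, by Pearson r of log2(FPKM + 0.1) among 11933 genes with a mean of at least 1, differed between the members. For Hspa1a they were Atf4 (r = 0.93), Mis12, Uspl1, Edrf1 and Eif1. For Hsp90aa1 they were Usp39 (0.94), Ahsa1 (0.93), Zfp180, Stip1 (0.93) and Exosc10, where Ahsa1 and Stip1 are co-chaperones of Hsp90. For Hspb1 they were Rexo2 (0.94), Khdrbs3, Pcp4l1, Cryab (0.91) and Podxl, and for Hspd1 they were Ddx18 (0.97), Iars, Wdr36, Zpr1 and Wdr74. After the mice numbered 4 and the others were centred separately, Atf4 and Uspl1 stayed among the 5 for Hspa1a, Usp39 for Hsp90aa1, Rexo2 and Pcp4l1 for Hspb1 and Ddx18 for Hspd1. Ahsa1, Stip1 and Cryab left the 5 by rank only, as their r became 0.94, 0.94 and 0.90. The 12 points share groups, libraries and sequencing, so these values describe likeness of pattern only.

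Among the members themselves r was highest for Hspa1a with Hspa1b (0.99), Hsp90ab1 with Hspd1 (0.96), Hspa8 with Hsp90aa1 (0.94) and Hsph1 with Hsp90aa1 (0.93), and lowest for Dnajb1 with Hspb1 (0.36), over the same 12 mice. The likeness of Hspa1a and Hspa1b may not be read as independent, since they share reads.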

How the data were processed

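RNA of the colorectum (rectal samples by the methods) of 12 mice in 4 groups of 3 was sequenced by the authors, with SOAPnuke as read filter, Bowtie2 2.2.5 as aligner and RSEM 1.2.12 for expression estimates (the submitters' notes name the mouse build mm9). Each mouse has 1 deposited column, taken as FPKM because of its values, and TPM of a larger gene set cannot be told apart from it. The table holds no read counts, so no count model was used, and depth was estimated from the steps of low values of 1501 genes with 1 transcript. The labels and the methods name different library kits and sequencers.

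Genes with a mean of at least 0.1 entered a linear model of log2(FPKM + 0.1) in limma (version 3.58.1, under R 4.3.3) that held all 12 mice in their 4 groups, with an empirical Bayes trend. P-values were two-sided and adjusted by Benjamini-Hochberg over 15315 genes, with a limit of 0.05. Groups came from the labels. The fits were tested on simulated data, and the other values came from Python 3.11.15 (SciPy 1.17.1, pandas 2.3.3 and NumPy 2.4.6; figures by matplotlib 3.10.9).

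The members, the lists and the tests were chosen with earlier results of these data known. All 10 members were named. Of the lists, genes past the adjusted limit and the 2 largest differences with a mean of at least 1 in each comparison could be named, and Hspb2, Dnaja4, Dnajb2 and Dnajc7 were named after their values were seen because they reached the unadjusted limit. The values of Egr1, and the names of the immediate early genes highest in normal mouse 1, were given after they were seen. Alternatives were another pseudocount (1 or 0.01), no filter or one at 1 FPKM, quantile normalization, median centring, a common column total, fits of the compared groups alone, no trend, blocks, the mice numbered 1 to 3 alone, each mouse left out and Hspa1a with Hspa1b summed.

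Replicate numbers were shared by 3 mice of both normal groups, and the deviations of same-numbered mice from their group means correlated at 0.29, 0.14 and 0.71 over genes, so that these numbers met the criterion for pairs (each above 0.1), although normal mice 1 and 3 correlated more with mice 3 and 1 receiving BBR (0.50 each). Neither the labels nor the methods tie a number to a litter, batch or day. The reported fit, the overlaps and the exact tests are unpaired, and a fit with the number as a block was an alternative.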

Additional observations from a re-analysis of the deposited data

How the results depend on the processing

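Of 960 values of single members under alternatives, 889 kept their direction and side of the adjusted limit. The count of members past the adjusted limit was 0 in every comparison and became 1 for colitis against normal and 5 for colitis with BBR against normal with BBR in the mice numbered 1 to 3 alone. With each mouse left out in turn it was 0 to 0 in all 5 comparisons. The count over all genes for colitis against normal, 165 as reported, was 11 to 77 without any 1 of normal mice 1, 3 and 4 and colitis mice 1 and 2, 211 without colitis mouse 4, 71 at a mean of at least 1, 91 with a pseudocount of 0.01, 258 after quantile normalization, 488 in the compared groups alone, 734 with the replicate block, 804 in the mice numbered 1 to 3 alone and 1412 with a block for the mice numbered 4. For colitis with BBR against colitis, 0 as reported, it was 58 without colitis mouse 3 receiving BBR, 0 or 1 without any 1 of the other 5 mice, 4 with a pseudocount of 1, 3 with no trend, 2 with a pseudocount of 0.01 or a block for the mice numbered 4 and 1 with no filter or the replicate block. For normal with BBR against normal, 0 as reported, it was 1 in the compared groups alone. For colitis with BBR against normal with BBR, 6 as reported, it was 0 in the compared groups alone, 2 with no filter, 3 after median centring, 9 with a column total held constant, 12 with no trend, 268 with that block, 0 to 2 without any 1 of the other 5 mice, 2255 without colitis mouse 4 receiving BBR and 2302 in the mice numbered 1 to 3 alone.

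Signs that turned were all of values within 1 SE of 0. For colitis against normal, Dnajb1 was 0.052 and Hspe1 0.0084 after quantile normalization, 0.25 and 0.27 after median centring, and Hspe1 0.17 with the replicate block. For colitis with BBR against colitis, Dnajb1 was 0.0085 after quantile normalization and 0.062 after median centring, which also gave Hsp90ab1 0.056 and Hspd1 0.012, Dnajb1 was 0.11 with the replicate block, and Hspd1 was 0.011 in the mice numbered 1 to 3 alone. For normal with BBR against normal, Hspd1 was 0.17 in those mice. For the interaction, Hspa1a was -0.055 with a pseudocount of 1, -0.29 in the mice numbered 1 to 3 alone and -0.31 summed with Hspa1b, Hspd1 was 0.019 and 0.038 after quantile normalization and median centring, and Hspa1b was 0.0041 with the replicate block. The cause was not tested.

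With single mice left out, the sign turned for colitis against normal in Dnajb1 (-0.56 to 0.68) and Hspe1 (-0.54 to 0.19). For colitis with BBR against colitis it turned in Hsph1 (-0.40 to 0.77), Dnajb1 (-0.40 to 0.18), Hsp90aa1 (-0.0035 to 0.45), Hsp90ab1 (-0.41 to 0.27), Hspb1 (-0.31 to 1.47) and Hspd1 (-0.39 to 0.26). For normal with BBR against normal it turned in Dnajb1 (-0.068 to 1.17), Hsp90ab1 (-0.28 to 0.53), Hspb1 (-0.11 to 0.40), Hspd1 (-0.35 to 0.37) and Hspe1 (-0.42 to 0.56). For the interaction it turned in Hspa1a (-1.36 to 1.09), Hspa1b (-1.86 to 0.46), Hspa8 (-1.02 to 0.052), Hsp90aa1 (-0.82 to 0.028), Hsp90ab1 (-0.63 to 0.22), Hspb1 (-0.52 to 1.26) and Hspd1 (-0.51 to 0.32).

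The replicate numbers, used as a block, changed no call of a member. Outside the pair of normal groups the compared groups share 2 numbers or fewer, and over all 13 same-numbered pairs the correlation of deviations averaged 0.37, against -0.11 for 41 pairs of different numbers. Among mice numbered 1 to 3 the averages were 0.22 and 0.23. With the block the 4 members of colitis with BBR against normal with BBR at the unadjusted limit became 0. With 3 mice a group the exact permutation test cannot go below 0.1, and SEs of 0.41 to 1.09 limit what could pass. Values under about 0.121 FPKM, the worth of 3 reads on 2000 bases, carry little information, and all members were above it.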
